A study of Mus musculus with 2 samples.

Results

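The Mirg cluster comprises the miRNA genes from Mir379 to Mir3072 on the plus strand of mouse chromosome 12, in the imprinted Dlk1-Dio3 region. Its members were chosen by a rule on position, with earlier results of these data known. Every miRNA gene of GENCODE M21 on the plus strand of chromosome 12 that starts between 109.7 and 109.76 Mb (mm10) and is listed in both count tables was taken, which gave 39 of 2202 miRNA genes. MicroRNA sequencing was performed on total RNA from adrenal glands of 2-month-old female B6CASTF1/J mice, an F1 hybrid strain, with no treatment labelled. The only group held 2 biological replicates. Their tissue labels count the females apart, but their donor label is the same. Nothing else in the labels separates the animals, so the spread given here may in part be technical. No second genotype, treatment or age was included, and the comparisons are therefore between members and between the 2 libraries.

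MicroRNAs are cut from hairpins in a longer primary transcript, and a short mature arm then guides silencing complexes to mRNAs, mainly through its seed, bases 2 to 8. The Mirg cluster is among the largest miRNA clusters of placental mammals. It is transcribed from the maternal chromosome, with the noncoding genes Meg3 and Rian upstream and Mirg at its 3′ part, and is best known from brain, embryo and placenta. Mir134, for example, is known for limiting Limk1 translation in neuronal dendrites, and hairpins of the Mir376 group are known substrates of A-to-I RNA editing.

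Gene counts totalled 2839732 in replicate 1 and 2280028 in replicate 2, and levels are given as counts per 1000000 gene counts (CPM), as mean ± SD with n = 2. A single read equalled 0.352 CPM in replicate 1 and, at the lower depth, 0.439 CPM in replicate 2. The markers of other cells were read beside the cluster. Neuroendocrine miRNAs (Mir375 and the miR-7 genes), typical of hormone-secreting cells such as those of the medulla, summed to 42776 and 40149.5 CPM in replicates 1 and 2, and endothelial Mir126a was at 43203 and 59463 CPM. Of 14 neuronal miRNA genes, 7 were detected, with a sum of 579 and 412 CPM. The 6 Mir124a and Mir9 genes had no counts, but their copies share mature sequences, and a read that matches several places was given to no gene. Skeletal and heart muscle miRNAs (10 genes, none detected in both libraries) summed to 953 and 6.58 CPM, and 3 erythroid miRNAs to 643 and 14488 CPM, so these 2 lists stood apart between the libraries. Mir133a-1, Mir133a-2 and Mir133b had no counts, and for the Mir133a copies, which also share mature sequences, the same limit holds. In a whole gland, fewer cells of a type and less RNA per cell cannot be told apart.

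The mature sequences of the 4 most abundant members are shown first, because these members carried most of the reads of the cluster. Sequences are from RefSeq (GRCm38.p6), which held a mature sequence for 38 of the 39 members and 71 mature sequences in all, and run 5′ to 3′ with the seed in capitals. Counts were per hairpin, so the arms could not be told apart.
miR-379-5p: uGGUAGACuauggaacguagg
miR-379-3p: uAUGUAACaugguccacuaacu
miR-411-5p: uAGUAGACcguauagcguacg
miR-411-3p: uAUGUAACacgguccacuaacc
miR-382-5p: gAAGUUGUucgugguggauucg
miR-382-3p: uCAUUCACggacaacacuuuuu
miR-541-5p: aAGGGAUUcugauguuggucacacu
miR-541-3p: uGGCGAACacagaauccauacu
Mir379 and Mir411, the first members of the cluster, share the 3p seed AUGUAAC, and their 5p seeds GGUAGAC and AGUAGAC are different. Mir382 and Mir541 share no seed with each other or with that pair.

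The first comparison was the level of the members within the gland. The cluster held 2.38% of all gene counts in replicate 1 (67715 counts, exact Clopper-Pearson 95% interval 2.37 to 2.40) and 2.51% in replicate 2 (57237 counts, 2.49 to 2.53), a mean of 2.45% ± 0.0890. These intervals cover counting error only. Reads that matched several places, 28.8% of all reads in replicate 1 and 25.3% in replicate 2, were given to no gene. Genes whose copies share a mature sequence lose such reads, while no RefSeq mature sequence of a member occurs whole in another hairpin. Shares, ranks and detection are thus those of the assigned reads. How far this affects the place of the cluster among all genes was not measured. Of the 39 members, 33 had at least 10 counts in both libraries and were called detected, which is 84.6% of members beside 15.5% of all miRNA genes in the tables. The median detected member was at 179 CPM, beside 131 CPM for all 342 detected genes. Only 4 members exceeded 1000 CPM in both libraries, and 15 had means between 100 and 1000 CPM and 13 between 10 and 100 CPM.

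In replicates 1 and 2 Mir379 reached 4902 and 5359 CPM (5130.5 ± 323), which placed it at rank 33 among all miRNA genes by assigned reads. Mir541 was at 3524 and 5914 CPM (4719 ± 1690, rank 36), and Mir411 at 4261 and 4482 CPM (4371 ± 156, rank 38). Mir382 was at 3732 and 3114 CPM (3423 ± 437, rank 43). Mir541 was the highest of the 4 in replicate 2 and the lowest in replicate 1, so these libraries give Mir541 no fixed place among them. The lowest value of these 4, 3114 CPM, lay far above the highest value of the fifth member, Mir134, at 1209 CPM. Together the 4 held 68.9% of the counts of the cluster in replicate 1 and 75.2% in replicate 2 (72.0% ± 4.46), and the first 10 members in the order of abundance held 88.4% ± 1.99.

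The next members by abundance were Mir134 (753 and 1209 CPM, 981 ± 323) and Mir409 (1034 and 739 CPM, 886 ± 209), whose order differed between the libraries. Mir485, known as a regulator of the synaptic vesicle protein SV2A, was at 510 and 742 CPM, and Mir154, which gives its name to a family of related hairpins of this cluster, at 615 and 557 CPM. These 2 also exchanged places. Mir487b (908 and 184 CPM) and Mir299a (503 and 242 CPM) closed the list of 10 and were lower in replicate 2. Along the whole order of the 33 detected members, the values of neighbours did not overlap in only 6 of 32 pairs, among them Mir411 above Mir382, Mir382 above Mir134 and Mir410 above Mir412. The other neighbours in the order could not be ranked beyond their spread.

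At the low end, Mir410, the member after which the distal end of the cluster is often named, was at 33.1 and 16.2 CPM (24.7 ± 11.9, rank 262), from 94 and 37 counts. Mir412 was the lowest detected member, with 22 and 20 counts (8.26 ± 0.725 CPM), and Mir379 exceeded it 621-fold. Mir544 had 4 and 2 counts and Mir758 3 and 1. Mir1197, Mir654, Mir453 and Gm27379 had no count in either library, which allows up to 3 counts, or 1.06 and 1.32 CPM in replicates 1 and 2. These 4 were thus not detectable at this depth.

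The second comparison followed the level along the polycistron. The members span 38.9 kb, from 109709060 (the start of Mir379) to 109747960 (the end of Mir3072), with a median of 556 bases between neighbouring hairpins. The closest neighbours were Mir679 and Mir1193, 20 bases apart, and the widest gap, 4368 bases, lay between Mir544 and Mir382. In GENCODE M21 the gene Mirg runs from 109729764 to 109749460, so 14 members lie inside it and 25 lie upstream of it, where they overlap no other annotated gene on the plus strand. The name Mirg therefore covers the annotated host of the distal members only. Inside Mirg, Mir134, Mir485, Mir377 and Mir410 lie within an exon of a Mirg transcript, Mir382, Mir668, Mir412, Mir369 and Mir3072 overlap an exon in part, and Mir453, Mir154, Mir496a, Mir541 and Mir409 are intronic.

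**Figure D1:**
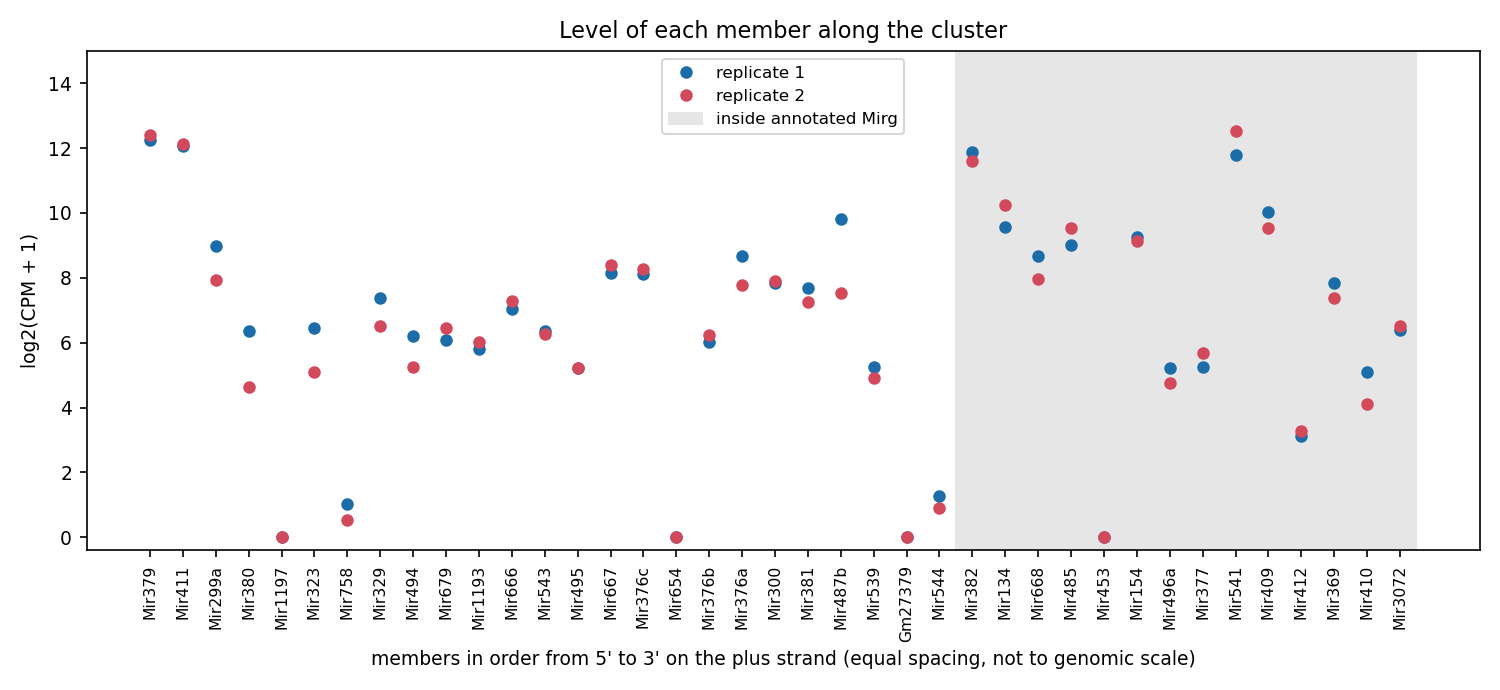
Level of each of the 39 members as log2(CPM + 1) (vertical axis), in order from 5′ to 3′ with equal spacing; each point is 1 library and the grey band marks members inside the annotated Mirg gene. Mir379 and Mir411 at the 5′ end and Mir382 and Mir541 inside Mirg stand above all other members in both libraries, and 4 members have no counts.

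No gradient of abundance was seen along the cluster. The Spearman correlation of mean log2(CPM + 1) with position was 0.00 over the 39 members and -0.07 over the 33 detected, and that between neighbouring members was 0.12 (38 pairs). These are descriptions, since all members share their libraries and may share a transcript. Mir379 (109709060 to 109709125) and Mir411 (109710175 to 109710256) together held 38.4% of the counts of the cluster in replicate 1 and 39.2% in replicate 2 (38.8% ± 0.547). The 23 members between Mir411 and Mirg held 15.4% and 9.48% (12.5% ± 4.21), with a median of 69.4 CPM and a highest mean of 546 CPM. Without Mir487b, a member that stood apart between the libraries, this stretch held 12.1% and 8.82% of the remaining counts.

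Inside Mirg the 14 members held 46.1% and 51.3% of the counts of the cluster (48.7% ± 3.67). Mir382 (109733771 to 109733846) contributed 15.7% and 12.4%, and Mir541 (109742409 to 109742498) 14.8% and 23.6%. The 12 others inside Mirg as a sum held 15.7% and 15.4% (15.5% ± 0.246). Their single shares moved in both directions within this sum. Mir134, for example, held 3.16% and 4.82%, and Mir409 held 4.33% and 2.94%. Levels thus changed sharply between near neighbours. Mir541 was at 4719 CPM, while the hairpin before it, Mir377, was at 43.5 ± 9.21 CPM. After it came Mir409 at 886 CPM and Mir412 at 8.26 CPM. Mir411 was likewise followed by Mir299a (372 ± 184 CPM) and Mir380 (52.3 ± 40.5 CPM).

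**Figure D2:**
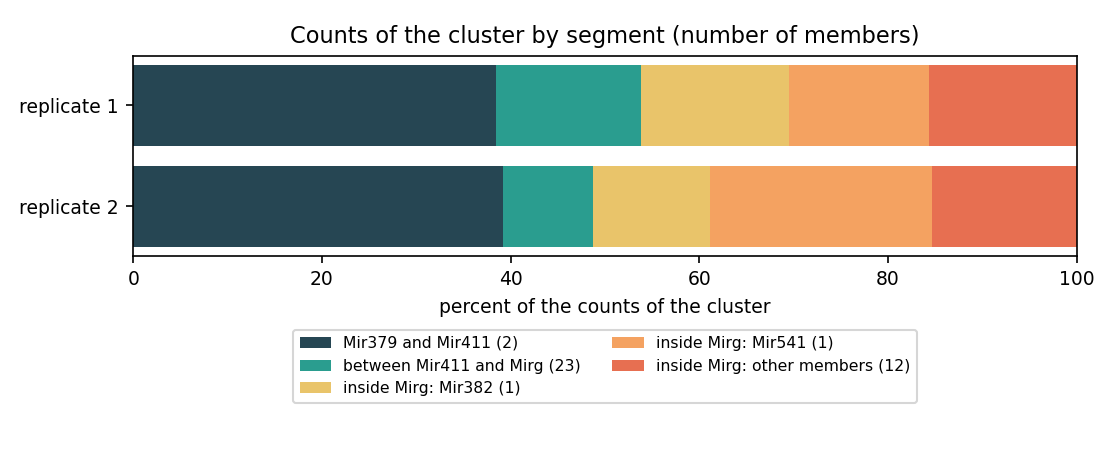
Percent of the counts of the cluster (horizontal axis) held by each segment, 1 bar per library, with the number of members in brackets. Mir379 with Mir411 held 38.4% and 39.2%, while Mir541 held 14.8% in replicate 1 and 23.6% in replicate 2 and that of the 23 members between Mir411 and Mirg was 15.4% and 9.48%.

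Other features of the hairpins did not order the levels either. GC content ran from 29.1% (Mir376c) to 72.3% (Mir3072), with a median of 43.6%. Over the 33 detected members the Spearman correlation with log2(CPM + 1) was 0.14 for GC content, 0.06 for the minimum folding energy computed for the hairpin and -0.09 for its length. These values are given as descriptions.

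The third comparison set the cluster beside the 20 miRNA genes upstream in the same imprinted region (plus strand, starts from 109.54 Mb up to 109.7 Mb), which lie among Meg3, the antisense strand of Rtl1 and Rian. That group held 2.27% of all gene counts in replicate 1 and 3.49% in replicate 2, with 16 genes detected, and Mir127, which is known for silencing Rtl1, alone made up 61.7% and 69.9% of it. Mir433 (3703 ± 488 CPM), Mir337 (1360 ± 395 CPM) and Mir431 (1177 ± 113 CPM) came next. The cluster made up 51.2% of the counts of both groups together in replicate 1 and 41.9% in replicate 2. Its summed CPM was 1.05 times as high in replicate 2 as in replicate 1, and that of the upstream genes 1.54 times. The difference between these ratios was not tested over animals, since each rests on 2 libraries. The upstream sum leans on Mir127, whose log2 ratio of replicate 2 over replicate 1 was 0.80. Gene by gene, the median of this log2 ratio was 0.14 for the 16 upstream genes and -0.09 for the 33 detected members. By the rule of the fourth comparison, no upstream gene was called in either direction.

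The fourth comparison was between the 2 libraries, gene by gene. Each gene with a mean count of at least 10 was compared between libraries of the given totals by the exact binomial test (two-sided), with Benjamini-Hochberg adjustment over all 369 genes. A gene was called if its adjusted p fell below 0.05 and its CPM differed 2-fold or more. The test compares these libraries and not animals or conditions, and a single library on each side allows no test over samples. All 33 detected members, and no others, were tested. Of these, 5 were called higher in replicate 1, or 15.2%, beside 10.03% of all tested genes, and none was called higher in replicate 2, beside 8.67% of all tested genes. In either direction 18.7% of all tested genes were called. At an adjusted p under 0.05 alone, whatever the fold, 14 of the 33 members were higher in replicate 1 and 10 in replicate 2, beside 99 and 132 of all 369 genes. At an unadjusted p under 0.05 it was also 10 members that were higher in replicate 2, none of them by 2-fold, and scaling with edgeR's TMM factors also called none. The 6 other members had too few counts to test.

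Mir487b showed the widest difference of the tested members, with 2578 counts in replicate 1 and 419 in replicate 2. Its CPM was 4.94-fold higher in replicate 1 (exact 95% interval 4.45 to 5.49, binomial test, adjusted p = 2.23e-281). The detected hairpins on either side of it, Mir381 and Mir539, had log2 ratios of replicate 2 over replicate 1 of -0.42 and -0.35, against -2.30 for Mir487b. Mir487b lies at 109727333 to 109727414 and shares a stretch of 20 bases with Mir376b, whose counts were 181 and 171. Any part of this stretch in the difference was not tested.

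Mir380 had 230 and 54 counts and was 3.42-fold higher in replicate 1 (2.53 to 4.69, binomial test, adjusted p = 8.85e-19). Mir323 had 245 and 75 counts and was 2.62-fold higher (2.02 to 3.44, adjusted p = 1.76e-14 by the same test). Both are minor members, at 52.3 and 59.6 CPM on average. Mir299a, with 1428 and 552 counts, was 2.08-fold higher in replicate 1 (1.88 to 2.30, adjusted p = 9.23e-52 by the binomial test). Mir410 was 2.04-fold higher (1.38 to 3.07, adjusted p = 3.13e-04 by the binomial test), on 94 and 37 counts. The intervals of these last 2 extend below 2-fold, and Mir494 (209 and 85 counts, 1.97-fold), Mir376a (1156 and 498, 1.86-fold) and Mir329 (470 and 205, 1.84-fold) fell just short of the rule. With median-of-ratios scaling these 3 were called as well, which gives 8 members, beside 12.2% of all tested genes higher in replicate 1. Without genes of a mean count under 100, Mir410 was not tested and 4 of 28 members were called higher in replicate 1, beside 8.97% of the 234 genes tested.

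**Figure D3:**
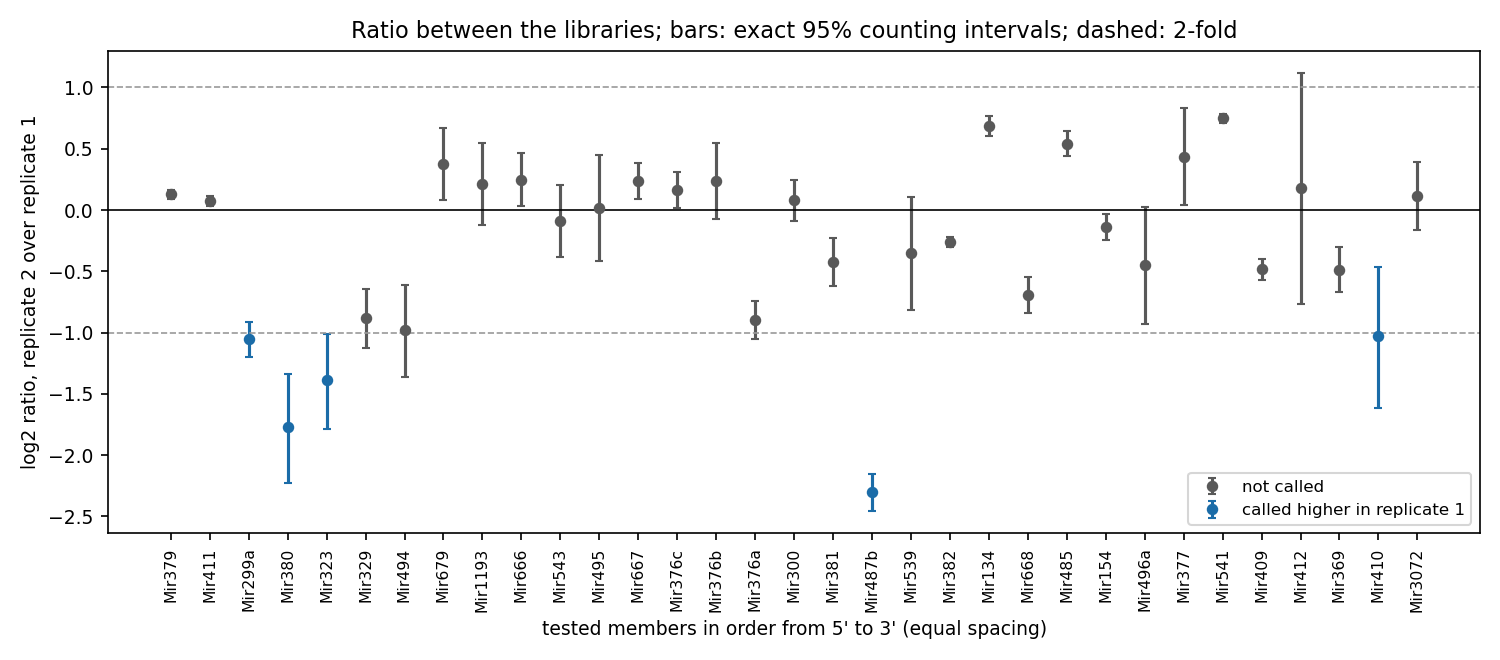
log2 ratio of CPM in replicate 2 over replicate 1 (vertical axis) for the 33 tested members in order from 5′ to 3′; bars are exact 95% counting intervals, dashed lines mark 2-fold and blue points are the 5 members called higher in replicate 1. The tested members from Mir299a to Mir494 all lie between -1.77 and -0.88, and those from Mir679 to Mir376b between -0.09 and 0.38.

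Members with like ratios lay together in some stretches of the cluster and not in others. The 5 tested members from Mir299a to Mir494 (Mir299a, Mir380, Mir323, Mir329 and Mir494) had log2 ratios from -1.77 to -0.88. The next 8, from Mir679 to Mir376b, lay between -0.09 and 0.38. The 5 after those, from Mir376a to Mir539, were not alike and ran from -2.30 for Mir487b to 0.08 for Mir300. These stretches were picked after the ratios had been seen, so they carry no test. The 2 members upstream of them, Mir379 and Mir411, were at 0.13 and 0.07, and inside Mirg the 13 tested members ran from -1.03 for Mir410 to 0.75 for Mir541. Over all 32 pairs of neighbouring tested members the Spearman correlation of the ratios was 0.17.

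Mir541, Mir134 and Mir485 were the members with the highest ratios, and none reached 2-fold. In replicate 2 Mir541 was 1.68-fold higher, with a 95% interval of 1.64 to 1.72, Mir134 was 1.61-fold higher (1.52 to 1.70) and Mir485 1.46-fold (1.36 to 1.56). Across the 33 tested members the median log2 ratio was -0.09, beside 0.07 over all 369 genes, and regardless of direction the median log2 difference was 0.42, beside 0.45. TMM scaling moved these medians to -0.18 and -0.02, and median-of-ratios scaling to -0.25 and -0.09, so the sign of the median over all genes depended on the scaling. A difference under 2-fold was seen for 28 members, or 84.8%, beside 81.0% of all tested genes. The Spearman correlation of the ratio with hairpin GC content was 0.27 over the members and 0.10 over the 336 other tested genes. Marker lists of other cells moved with the called members, against them or in neither direction. Of the muscle miRNAs 3 could be tested and all were called higher in replicate 1, as were 3 of 5 epithelial miRNAs (Mir200a, Mir200b and Mir429; 98.2 and 46.1 CPM over all 5) and 1 of 4 leukocyte miRNAs (Mir223, 133 and 17.5 CPM, with 1331 and 1051 CPM over all 4). Of the 3 erythroid miRNAs, 2 were called higher in replicate 2. Of 7 tested neuronal miRNAs, 1 was called in each direction. None was called among 4 neuroendocrine, 1 endothelial and 5 tested smooth muscle and fibroblast miRNAs. With the counts of the muscle and erythroid lists taken out of the totals the same 5 members were called, beside 9.76% of all tested genes. The part of any of these cells in the ratios of the members was not tested.

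**Figure D4:**
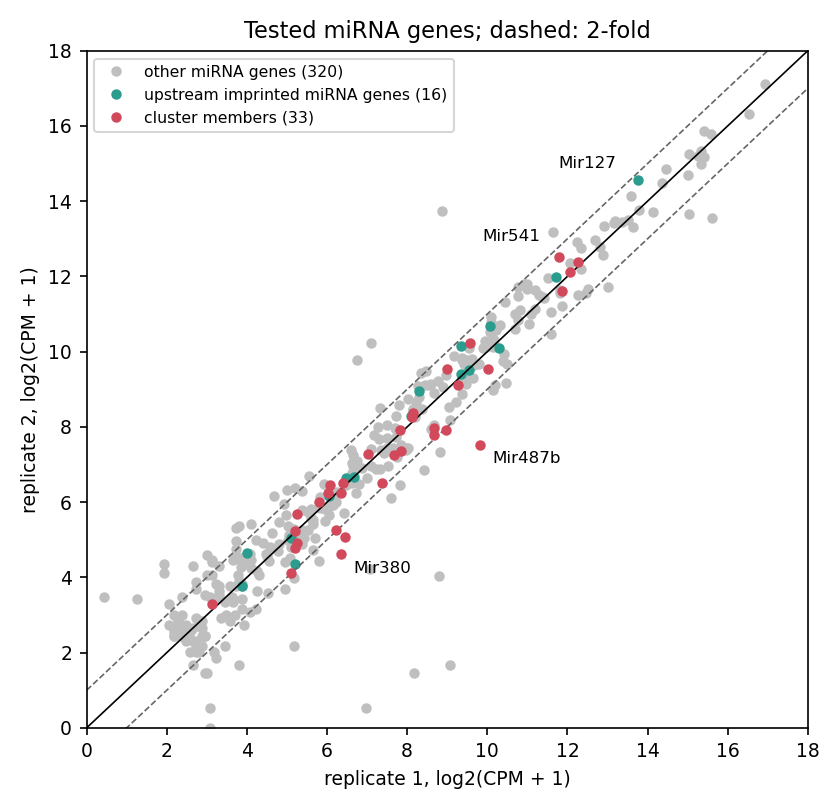
Each of the 369 tested miRNA genes by its log2(CPM + 1) in replicate 1 (horizontal axis) and replicate 2 (vertical axis), with cluster members in red and the upstream imprinted genes in green; dashed lines mark 2-fold. Of the members, 4 (Mir487b, Mir380, Mir323 and Mir299a) lie below the lower dashed line, with Mir487b (908 and 184 CPM) farthest from it, and Mir410 (33.1 and 16.2 CPM) lies just inside it on this scale.

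The fifth comparison concerned seed families. The 71 mature sequences of the members hold 65 different seeds, and 6 seeds are held by more than 1 member, each by 2. Besides the pair of Mir379 and Mir411 shown above, these 5 pairs are printed because each ties a member to another by its seed. RefSeq held only a 5p sequence for Mir376c, Mir487b and Mir539, only a 3p sequence for Mir485, and a single sequence without a named arm for Mir453. Seeds on arms that RefSeq does not list are therefore not counted here.
miR-379-5p: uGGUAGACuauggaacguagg
miR-1193-5p: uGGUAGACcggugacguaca
miR-376c-5p: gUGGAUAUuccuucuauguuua
miR-376b-5p: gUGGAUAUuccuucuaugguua
miR-494-5p: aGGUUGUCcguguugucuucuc
miR-410-5p: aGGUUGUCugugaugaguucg
miR-496a-5p: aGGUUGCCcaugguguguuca
miR-453: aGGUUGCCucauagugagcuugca
miR-758-5p: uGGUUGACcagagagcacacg
miR-1197-5p: cGGUUGACcaugguguguacg
The 3p seed of Mir379 and Mir411 was held by genes with 38.8% ± 0.547 of the counts of the cluster, and the 5p seed of Mir379 and Mir1193 by genes with 21.2% ± 0.574. In the latter family Mir379 was at 5130.5 CPM and Mir1193 at 59.3 ± 6.12 CPM, so Mir379 made up nearly all of it. Mir376c (291 ± 23.2 CPM) and Mir376b (69.4 ± 7.96 CPM) together held 1.47% ± 0.0739. Mir494 (55.4 ± 25.7 CPM) and Mir410 (24.7 ± 11.9 CPM) held 0.330% ± 0.166, and of these only Mir410 passed the rule between the libraries. Mir496a (31.1 ± 6.79 CPM) shared its seed with Mir453, which had no counts, and Mir758 with Mir1197, a pair with 3 and 1 counts in all. In 11 members that share a seed lay 41.0% ± 0.437 of the counts. These shares are those of the hairpin genes and not of the arm that holds the seed.

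No gene of the RefSeq table outside the cluster held any of these 6 seeds. A further 11 mature sequences of members had a seed also found outside. Of the genes that hold those seeds, the most abundant was Mir672 on chromosome X (880 and 819 CPM), whose 5p seed GAGGUUG is that of miR-377-5p, while Mir377 was at 43.5 ± 9.21 CPM. Mir362, also on chromosome X, holds the 3p seed ACACACC of Mir329 and was at 55.6 and 68.9 CPM, beside 166 and 89.9 CPM for Mir329. Mir370, upstream in the same imprinted region, holds the 3p miR-1193 seed AGGUCAC on its 5p arm and was at 88.4 and 99.1 CPM. The 3p seed of Mir410 (AUAUAAC) is held by 3p arms of the Mir344d and Mir344e genes, which had no counts. The Mir344d copies share this mature sequence, so reads of it match several places and would be given to no gene. In all, 32.4% of the mature sequences of members had a seed held by another gene, beside 32.0% of all 1738 mature sequences of the table.

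The hairpins share letters beyond the seeds. The motif GGUUGNCC, in which N is any base, was found in 9 of the 71 mature sequences of members (12.7%) and in 0 of the 1667 others, or 0.518% of the whole table. It was chosen after the sequences had been read, and its reverse complement was found in none of them. The 9 sequences are shown with the motif in capitals, because its place differs between members and in 4 of them it starts at base 2, the first base of the seed.
miR-380-5p: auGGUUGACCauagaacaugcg
miR-1197-5p: cGGUUGACCaugguguguacg
miR-758-5p: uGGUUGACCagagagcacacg
miR-494-5p: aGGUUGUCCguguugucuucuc
miR-381-5p: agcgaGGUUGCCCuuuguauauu
miR-134-5p: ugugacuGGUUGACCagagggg
miR-154-3p: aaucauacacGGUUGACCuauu
miR-496a-5p: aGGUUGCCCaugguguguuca
miR-377-5p: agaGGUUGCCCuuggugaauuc
The genes of these sequences held 7.55% and 8.19% of the counts of the cluster. A second motif, GGUCNAC, was also not set before the sequences were read. It was found in 8 member sequences (11.3%) from 7 genes and in 1 of the others, or 0.518% of the table. Its reverse complement was found in 9 and 2, or 0.633% of the table. In 5 sequences GGUUGNCC overlaps that reverse complement, so the 2 motifs are not independent. In miR-379-3p, miR-411-3p, miR-380-3p, miR-1197-3p, miR-323-3p and miR-758-3p the motif GGUCNAC starts at base 11. Genes with this motif held 39.2% and 39.5% of the counts of the cluster, nearly all from Mir379 and Mir411. A match is a description of the letters and not of a function.

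The last comparison was of the genes overlapped on the other strand, where a member loses its reads if they are counted without regard to strand. Of the 39 members, 5 overlap a miRNA gene annotated on the minus strand: Mir299a with Mir299b, Mir380 with Gm25750, Mir376a with Gm25252, Mir539 with Gm44322 and Mir409 with Gm24321. Mir409 (109743158 to 109743236), for example, is covered by Gm24321 (109743158 to 109743237). On their own strand these 5 members had 5854 counts in replicate 1 and 2854 in replicate 2, or 8.65% and 4.99% of the counts of the cluster. Without regard to strand they had 1 and 0 counts, since reads that fall in 2 genes are not assigned. The other 34 members had the same counts with and without strand.

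The opposite genes themselves had few or no counts. Gm25750, Gm25252, Gm44322 and Gm24321 had no counts on their own strand in either library, and Mir299b had 1 and 3. Reads on the minus strand over the members came to the same 1 and 3 counts, all over Mir299a. The log2 ratios of the 5 overlapped members ran from -1.77 to -0.35. Mir299a and Mir380 among them passed the rule, and Mir376a, Mir409 and Mir539 did not.

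**Figure D5:**
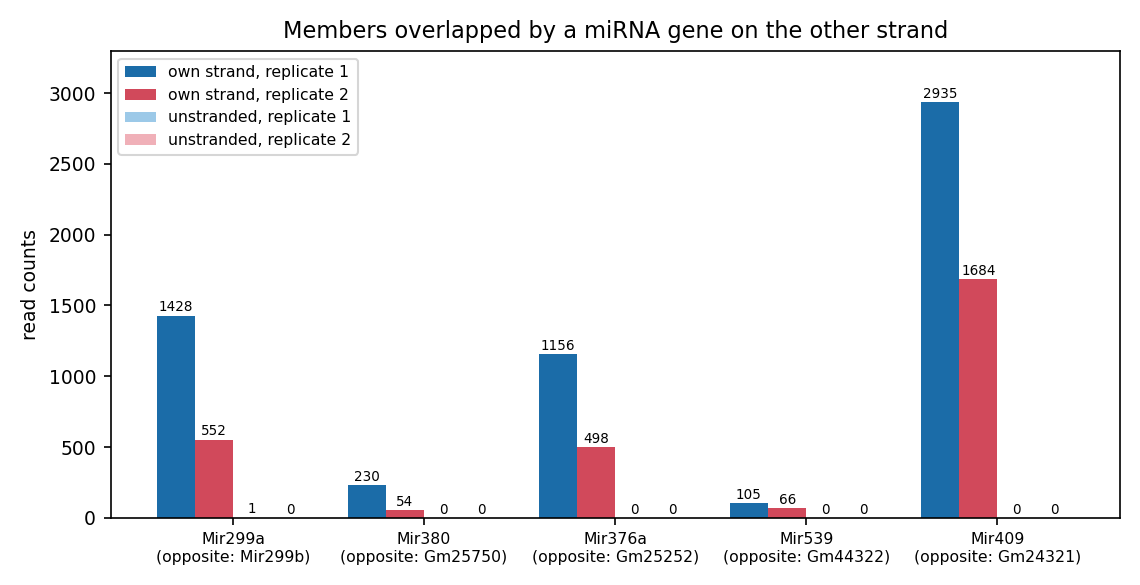
Read counts (vertical axis) of the 5 members overlapped by a minus-strand miRNA gene, counted on their own strand or without regard to strand, in each library. Mir409 had 2935 and 1684 counts on its own strand and none without strand, and only Mir299a kept 1 count.

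Mir299a and Mir299b are a special case, since their hairpin is nearly its own reverse complement. Their mature sequences are shown with the run common to both strands in capitals.
miR-299a-5p (plus strand): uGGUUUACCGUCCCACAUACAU
miR-299b-5p (minus strand): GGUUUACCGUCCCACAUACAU
miR-299a-3p (plus strand): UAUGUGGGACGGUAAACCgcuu
miR-299b-3p (minus strand): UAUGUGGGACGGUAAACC
The 5p pair has 21 bases in common and the 3p pair 18. A read that lies within the common run matches both strands of this locus. Such a read would be counted as aligned to several places and not assigned, so the 372 CPM of Mir299a and its ratio hold for the reads that differ. How many reads were lost in this way was not measured. Of the 39 hairpins, Mir299a alone has 18 or more bases in common with its own reverse complement.

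Among the other members, Mir376c and Mir376b have a stretch of 31 bases in common, Mir411 and Mir758 one of 21 bases, and Mir487b and Mir376b one of 20 bases. No mature sequence that RefSeq lists for a member occurs whole in another hairpin of the annotation. The 5p sequences of Mir376c and Mir376b share a run of 18 bases, so shorter reads of this pair may be missing from their counts.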

How the data were processed

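MicroRNA-seq reads of 2 adrenal gland libraries were analysed from the count tables that the authors deposited. Per the file headers and sample information, the deposited values are raw read counts per miRNA gene on mm10 with GENCODE M21, in columns without regard to strand, on the strand of the gene and on the opposite strand. Neither aligner nor counter is given in the sources used here. Of the single-strand columns, that of the gene's own strand had the larger total and was used. Rows that name no gene were kept out of totals. Unmapped, multiply aligned, unannotated and ambiguous reads were 29.8%, 28.8%, 10.8% and 8.62e-05% of 9278190 reads in replicate 1 and 39.7%, 25.3%, 8.60% and 0% of 8659511 in replicate 2.

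Symbols, positions (counted from 1) and hairpins were taken from GENCODE M21, and mature sequences and seeds from RefSeq (GRCm38.p6). Counts were scaled to 1000000 per library (CPM). Ratios between libraries were tested with an exact two-sided binomial test (scipy 1.17.1) with Benjamini-Hochberg adjustment over 369 genes (mean count 10 or more), and intervals are exact at 95%. TMM factors came from edgeR 4.0.16 and folding energies from RNAfold 2.7.2. Counts for this comparison of 369 genes were also simulated with counting error only. On these the rule called 99 of 100 genes at 4-fold, 3 of 100 at 1.5-fold and 1 of 169 unchanged genes. The simulation held no variation between animals or library preparations, so it cannot give the rate of false calls between these libraries.

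The members and lists were chosen with earlier results of these data known. Named were the markers Mir379, Mir411, Mir541 and Mir410, the 10 most abundant members, those past the test, those with a shared seed, with an overlapping gene on the other strand or without counts, and up to 4 upstream genes. Other members were named after their values were seen. Alternatives covered strand, scaling, count minimum, filter, single replicates and the arm used for seeds. Alleles of the hybrid strain were not analysed here.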

Additional observations from a re-analysis of the deposited data

How the results depend on the processing

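With unstranded counts the cluster held 2.65% of all gene counts. This share was higher because the total of gene counts fell as well. Over all genes, 347555 and 354974 reads in replicates 1 and 2 were ambiguous without strand. The 4 most abundant members held 77.2% of the cluster and 28 members were detected, as the 5 members with a gene on the other strand lose their reads. With 1 replicate left out, the share of the cluster ranged from 2.38% to 2.51% and that of its 4 most abundant members from 68.9% to 75.2%. Detection stayed at 33 members with a count minimum of 5 or 20. Median-of-ratios scaling called 8 members higher in replicate 1 in place of 5 (12.2% of all tested genes), and TMM scaling 6 (10.6%). Lifting the filter left 5 (5.55%), as did taking the muscle and erythroid lists out of the totals, a setting chosen after seeing the data (9.76%), and a mean count of at least 100 left 4 (8.97%). No setting called a member higher in replicate 2. With seeds taken from the first-listed arm only, the family of Mir379 and Mir411 has no value and the other 5 families are as given. No paired analysis was possible because the design has 1 group. A replicate left out ends the comparison between libraries, which then gives no value. Depth limits members under 10 counts, and 2 libraries do not allow a test over animals.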
